A study of Mus musculus with 6 samples.

Results

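The transcripts described here are those of 8 genes that are normally associated with T and B lymphocytes, read in natural killer (NK) cells that cannot make an antigen receptor. They are Trgv1 and Trgv4, variable segments of the T cell receptor gamma locus, Cd3d, Cd3e and Cd3g, which encode signalling chains of the T cell receptor complex, Ighm, the constant region of the immunoglobulin mu heavy chain, the surface glycoprotein gene Thy1 and the co-stimulatory receptor gene Cd28. All 21 probe sets that carry exactly 1 of these symbols were taken, out of 45037 probe sets and 18193 named genes. In 9 of the 21 at least 1 subset mean lay above the background level of 6.41. Of the 21, 1 belonged to Trgv1, 3 to Trgv4, 1 each to Cd3d, Cd3e, Cd3g and Thy1, 2 to Cd28 and 11 to Ighm. A further 5 probe sets list one of these genes together with others and name no gene.

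The cells were NK1.1+ splenocytes of RAG-/- mice, sorted into 3 subsets by CD27 and CD11b and profiled on Affymetrix mouse whole-genome arrays, with 2 arrays per subset. The subsets were CD27+CD11b-, CD27+CD11b+ and CD27-CD11b+, commonly placed in this order of NK cell maturation. Every subset therefore carried the same RAG deficiency, and no RAG-sufficient cells were profiled. The labels do not say which RAG gene was deleted, nor the age, sex or number of the animals. The labels call the 2 arrays of a subset independent replicates without naming separate animals, so each p-value reflects the scatter of these samples, which may be technical. Values are log2 expression values, means are given ± SD over n = 2 arrays, and each difference is on the log2 scale and carries the SE (standard error) of a limma fit over all 45037 probe sets. A probe set was called at a Benjamini-Hochberg adjusted p under 0.05 over all of them. A level of 6.41, set by genes of other tissues, is called background.

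Antigen receptor genes are assembled from variable, diversity, joining and constant segments by the RAG recombinase. Before they are rearranged, open loci can be transcribed as germline transcripts that encode no receptor. The CD3 gamma, delta, epsilon and zeta chains carry the tyrosine motifs through which the T cell receptor signals. NK cells use the zeta chain and the related adaptors FcR gamma and DAP12 with their own receptors. In developing T cells the interleukin-7 receptor, acting through STAT5, opens the gamma locus.

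The 3 CD3 genes lie next to each other on chromosome 9. Promoter sequences were at hand for these 3 of the 8 genes, and they are shown because these neighbouring genes had unlike values: the probe sets of Cd3d and Cd3g exceeded background in the CD27+CD11b- subset and that of Cd3e did not. The sequences are from RefSeq on GRCm38.p6 and run 5′ to 3′ on the strand of the gene: Cd3d at chr9:44981536-44981835 (+), Cd3g at chr9:44980382-44980681 (-) and Cd3e at chr9:45009562-45009861 (-). Capitals mark matches on either strand to the E-box CANNTG, bound by E proteins, and to the ETS family letters GGAAGT. The RUNX family letters TGTGGT were searched as well.
Cd3d: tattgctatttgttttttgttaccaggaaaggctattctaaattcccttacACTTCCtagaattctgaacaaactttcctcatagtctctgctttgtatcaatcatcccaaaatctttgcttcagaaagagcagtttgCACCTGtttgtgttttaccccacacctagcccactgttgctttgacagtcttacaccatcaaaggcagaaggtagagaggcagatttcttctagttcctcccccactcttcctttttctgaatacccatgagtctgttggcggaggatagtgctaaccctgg
Cd3g: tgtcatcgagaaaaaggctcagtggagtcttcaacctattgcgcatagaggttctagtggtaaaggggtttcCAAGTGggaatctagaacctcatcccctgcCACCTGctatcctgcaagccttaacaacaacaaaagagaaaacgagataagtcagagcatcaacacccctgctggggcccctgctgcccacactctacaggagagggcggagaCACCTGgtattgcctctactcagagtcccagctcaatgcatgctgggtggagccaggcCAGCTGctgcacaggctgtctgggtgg
Cd3e: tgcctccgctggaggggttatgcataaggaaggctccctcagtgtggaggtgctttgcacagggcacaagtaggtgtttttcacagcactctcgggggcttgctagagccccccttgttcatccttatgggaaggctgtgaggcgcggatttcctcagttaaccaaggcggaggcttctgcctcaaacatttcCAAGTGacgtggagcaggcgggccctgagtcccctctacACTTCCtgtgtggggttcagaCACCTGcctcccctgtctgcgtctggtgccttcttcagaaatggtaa
The Cd3g window held 4 E-boxes and 0 ETS matches, the Cd3d window 1 of each, and the Cd3e window 2 E-boxes and 1 ETS match. None of the matches overlapped, and 0 RUNX matches were found in these 3 windows. Of 32851 promoter windows of this length, 72.3% held an E-box, 23.8% the ETS letters and 16.8% the RUNX letters. A match describes letters only, not a bound site.

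All 13 measured NK cell markers, among them Ncr1, Eomes and Tbx21, lay above background on all 6 arrays. The array titled CD27-CD11b+ replicate 1 is described elsewhere in its labels by the gate of another subset. It was grouped by its title, and its Itgam value of 9.93 and Cd27 value of 6.96 lay beside the 9.44 and 6.47 of CD27-CD11b+ replicate 2. Without the values of the other subsets beside them, these do not settle which gate was sorted. The arrays also fell into sets of 3 that cross the subsets. A trio of unnamed probe sets averaged between 12.57 and 12.81 on replicate 2 of CD27+CD11b-, replicate 2 of CD27+CD11b+ and replicate 1 of CD27-CD11b+ (the on arrays), and between 4.33 and 4.47 on the other 3 (the off arrays). The summed level of 17 monocyte and macrophage markers was 12.33 to 12.74 on the on arrays and 10.74 to 11.60 on the off arrays. Differences within each set of arrays are given for Trgv1, Cd3d, Cd3g, Cd28 and Thy1.

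In CD27-CD11b+ cells against CD27+CD11b- cells, the outer pair of subsets, 5 of the 21 probe sets fell and 0 rose. They were Trgv1, 2 of the 3 of Trgv4, Thy1 and 1 of the 2 of Cd28. Over all probe sets, 0.282% were called lower and 0.357% higher in this comparison, 127 and 161 of 45037. In CD27-CD11b+ against CD27+CD11b+ cells, 0 of the 21 passed, with 0.02% of all probe sets called lower and 0.02% higher, 9 each. In CD27+CD11b+ against CD27+CD11b- cells, 0 of the 21 passed and 0 of all probe sets were called in limma (0%), although 1339 reached an unadjusted p under 0.05. Fitted over 18193 genes with 1 probe set each, 22 genes passed in that last comparison. That fit changes both which probe sets are kept and how many are tested. The F test over the 3 subsets called 3 of the 21, the probe set of Trgv1 and those 2 of Trgv4, and 0.206% of all probe sets. With the on and off array sets entered as a block, 7 of the 21 fell in the outer comparison (0.451% of all probe sets lower, 0.504% higher), Cd3d and the other Cd28 probe set being added, and 0 in CD27-CD11b+ against CD27+CD11b+ (0.00666% lower, 0.00444% higher).

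**Figure D1:**
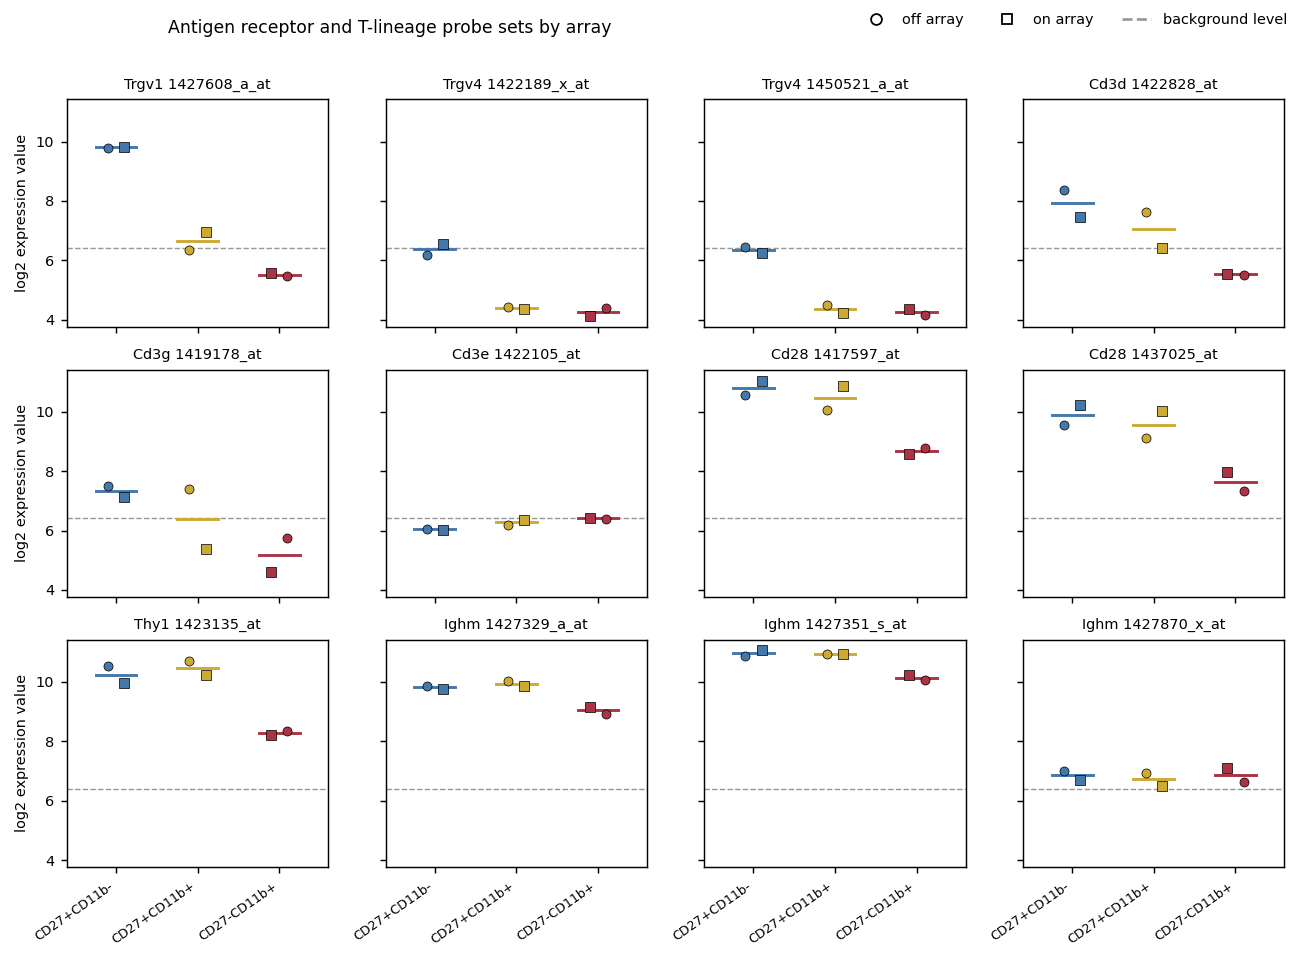
Log2 expression values (vertical axis) on each of the 6 arrays for 12 probe sets, with bars at the subset means, circles for off arrays, squares for on arrays and a dashed line at the background level of 6.41. Trgv1 was near 9.8 in CD27+CD11b- alone, whereas Thy1 and both Cd28 probe sets stayed high in both CD27+ subsets and were lower in CD27-CD11b+.

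Counted by overlap, the arrays of CD27-CD11b+ lay wholly below those of CD27+CD11b- in 14 of the 21 probe sets (66.7%) and wholly above in 1, against 22.8% and 24% of all probe sets. Against CD27+CD11b+, the CD27-CD11b+ arrays lay wholly below in 11 of 21 (52.4%) and above in 1, against 16.8% and 20.7%. CD27+CD11b+ arrays lay wholly below those of CD27+CD11b- in 3 of 21 (14.3%) and above in 3 (14.3%), near the 15% and 14.8% of all probe sets. The median difference of the 21 was -0.49, -0.23 and -0.12 in these 3 comparisons, beside -0.01, 0.0035 and -0.0044 over all probe sets. Probe sets of 1 gene share their transcript, and 11 of the 21 are Ighm, so these counts are not of independent genes. Some probe sets counted as wholly below, such as Trgv4 1450521_a_at and Ighm 1426196_at, had no subset mean above background.

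Trgv1, a variable segment of the gamma locus, was present in the least mature subset and low in the others. Its probe set, 1427608_a_at, read 9.78 and 9.83 in the CD27+CD11b- subset, 6.35 and 6.97 in the CD27+CD11b+ subset, and 5.57 and 5.48 in the CD27-CD11b+ subset. The arrays of the 3 subsets did not overlap, and both CD27-CD11b+ arrays were under background. The difference of CD27-CD11b+ from CD27+CD11b- was -4.28 (SE 0.22, adjusted p = 0.00263 in limma), a fall of at least 10.5-fold measured down to background. It was -4.30 within the off arrays and -4.26 within the on arrays. CD27+CD11b+ differed from CD27+CD11b- by -3.14 (SE 0.22), or 8.84-fold. That difference missed the threshold over all probe sets (adjusted p = 0.0594 in limma) and passed over 1 probe set per gene (adjusted p = 0.00484). CD27-CD11b+ differed from CD27+CD11b+ by -1.14 (SE 0.22, adjusted p = 0.274 in limma), at least 1.19-fold, and since CD27-CD11b+ lay under background the size of this difference is only bounded. The difference between these successive differences was 2.01 and was not called (limma adjusted p = 1 over probe sets and 0.652 over genes). In sorted bulk RNA, fewer cells with a transcript and less of it per cell cannot be told apart, here and for every gene below.

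Trgv4, another variable segment of the same locus, was also lower in the more mature subsets on 2 of its 3 probe sets, at values near or under background. Probe set 1450521_a_at read 6.45 and 6.24 in the CD27+CD11b- subset, 4.51 and 4.23 in the CD27+CD11b+ subset, and 4.37 and 4.17 in the CD27-CD11b+ subset. Probe set 1422189_x_at, whose suffix marks probes similar to other transcripts, read 6.19 and 6.54, then 4.42 and 4.36, then 4.12 and 4.39 in the same order of subsets. On both, the CD27+CD11b- arrays stood apart and those of the other subsets overlapped. CD27-CD11b+ fell against CD27+CD11b- with differences of -2.07 on 1450521_a_at (SE 0.17, adjusted p = 0.0108 in limma) and -2.11 on 1422189_x_at (SE 0.18, adjusted p = 0.0115). No fold is given, since neither subset mean exceeded background. CD27+CD11b+ differed from CD27+CD11b- by -1.97 on both probe sets (limma adjusted p = 0.0773 and 0.0889), and 1422189_x_at passed over 1 probe set per gene (adjusted p = 0.0107). CD27-CD11b+ differed from CD27+CD11b+ by only -0.10 and -0.14 (limma adjusted p = 0.903 and 0.865). The remaining probe set, 1427802_a_at, lay between 3.04 and 3.32 on all 6 arrays. A probe set listing a pair of gamma variable segments, which names neither, read 6.51 and 6.71 in the CD27+CD11b- subset, 3.98 and 3.79 in the CD27+CD11b+ subset, and 3.80 and 3.91 in the CD27-CD11b+ subset.

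Within the CD3 group, Cd3d and Cd3g were lower toward CD27-CD11b+, but neither passed over all probe sets. Cd3d, the delta chain (1422828_at), read 8.38 and 7.45 in the CD27+CD11b- subset, 7.64 and 6.43 in the CD27+CD11b+ subset, and 5.55 and 5.52 in the CD27-CD11b+ subset. Only CD27-CD11b+ stood apart from the others and lay under background. Its difference from CD27+CD11b- was -2.38 (SE 0.45, adjusted p = 0.0917 in limma), at least 2.84-fold to background, and it passed over 1 probe set per gene (adjusted p = 0.0256) and with this array division as a block (adjusted p = 0.0447). On minus off arrays came to -0.93 in CD27+CD11b- and -1.21 in CD27+CD11b+, so the arrays within a subset differed by about as much as the CD27+ subsets did from each other (-0.88, SE 0.45). Within the off arrays CD27-CD11b+ differed from CD27+CD11b- by -2.86, and within the on arrays by -1.90. The part of the division in these values was not tested beyond this.

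Cd3g, the gamma chain (1419178_at), had the largest SE of the 21 probe sets, 0.68. It read 7.51 and 7.12 in the CD27+CD11b- subset, 7.41 and 5.38 in the CD27+CD11b+ subset, and 4.60 and 5.74 in the CD27-CD11b+ subset. On minus off arrays came to -0.39 in the CD27+CD11b- subset, -2.03 in the CD27+CD11b+ subset and -1.14 in the CD27-CD11b+ subset, all of one sign, and the CD27+CD11b+ arrays overlapped with both other subsets. CD27-CD11b+ differed from CD27+CD11b- by -2.15 (SE 0.68, adjusted p = 0.226 in limma), with -1.78 among off arrays and -2.52 among on arrays. Without CD27+CD11b+ replicate 2 the difference of CD27+CD11b+ from CD27+CD11b- turned to 0.10, against -0.92 with both arrays.

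Cd3e, the epsilon chain (1422105_at), stayed at background. It read 6.05 and 6.02 in the CD27+CD11b- subset, 6.20 and 6.36 in the CD27+CD11b+ subset, and 6.44 and 6.38 in the CD27-CD11b+ subset. The CD27-CD11b+ arrays were the highest, by 0.37 over CD27+CD11b- (SE 0.14, adjusted p = 0.279 in limma), and no fold is given at this level. Across the 6 arrays Cd3d and Cd3g had a Pearson r of 0.91, and Cd3e had an r of -0.90 with each of them, which describes 6 points that share 3 subsets. The zeta chain gene Cd247, which NK cells also use, averaged 10.08 ± 0.20 in CD27-CD11b+ and 9.23 ± 0.29 in CD27+CD11b-, a difference of 0.85 that did not pass (limma adjusted p = 0.136). Fcer1g, the FcR gamma adaptor, rose in CD27-CD11b+ to 11.86 ± 0.24, against 10.56 ± 0.04 in CD27+CD11b- (2.46-fold, limma adjusted p = 0.042, and 0.0522 with this array division as a block).

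**Figure D2:**
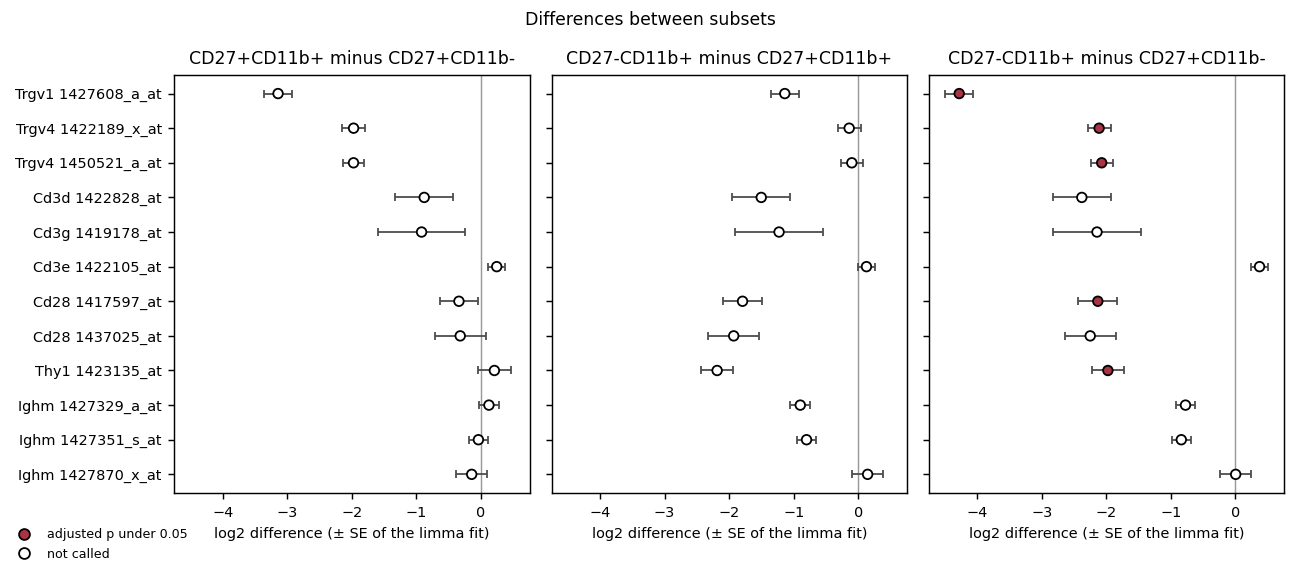
Log2 differences (horizontal axis) with the SE of the limma fit for the same 12 probe sets in the 3 comparisons, filled where the adjusted p was under 0.05. The gamma variable segments lie far below 0 already in CD27+CD11b+ minus CD27+CD11b-, while Thy1 and Cd28 lie near 0 there and near -2 in both comparisons that involve CD27-CD11b+.

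Cd28, which in T cells delivers the co-stimulatory signal from CD80 and CD86, was well above background in all 3 subsets and lower in CD27-CD11b+. Probe set 1417597_at read 10.57 and 11.05 in the CD27+CD11b- subset, 10.06 and 10.88 in the CD27+CD11b+ subset, and 8.57 and 8.78 in the CD27-CD11b+ subset. The CD27+ subsets overlapped and CD27-CD11b+ lay below both. CD27-CD11b+ fell 4.39-fold against CD27+CD11b- (-2.13, SE 0.30, adjusted p = 0.0488 in limma). The difference from CD27+CD11b+ was -1.79 (SE 0.30, adjusted p = 0.234 in limma, and 0.0598 over 1 probe set per gene). A different probe set, 1437025_at, read 9.55 and 10.24, then 9.11 and 10.04, then 7.97 and 7.32 in the same order. It gave a difference of -2.25 between CD27-CD11b+ and CD27+CD11b- (SE 0.39), which did not pass (limma adjusted p = 0.0794) and did with this array division as a block (adjusted p = 0.00937). The on array was the higher one in both CD27+ subsets on both probe sets, by 0.48 to 0.93, opposite to Cd3d. On 1417597_at CD27-CD11b+ differed from CD27+CD11b- by -1.79 within the off arrays and by -2.48 within the on arrays. Among the relatives of Cd28 on the list, Ctla4, an inhibitory receptor for the same ligands, fell to 4.94 ± 0.14 in CD27-CD11b+, against 8.39 ± 0.87 in CD27+CD11b- (at least 3.94-fold, limma adjusted p = 0.042). Icos, a co-stimulatory receptor of the family, averaged 8.31 ± 0.56 in CD27-CD11b+ and 9.89 ± 0.43 in CD27+CD11b- and did not pass (limma adjusted p = 0.142, and 0.017 with this array division as a block).

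Thy1 encodes CD90, a glycosylphosphatidylinositol-anchored protein that marks mouse T cells and some innate lymphocytes. Its probe set, 1423135_at, read 10.55 and 9.95 in the CD27+CD11b- subset, 10.70 and 10.22 in the CD27+CD11b+ subset, and 8.20 and 8.35 in the CD27-CD11b+ subset. The CD27+ subsets overlapped, differing by 0.21 (SE 0.25), and the CD27-CD11b+ arrays were lower than every other array. CD27-CD11b+ fell 3.94-fold against CD27+CD11b- (-1.98, SE 0.25, adjusted p = 0.0385 in limma). On minus off arrays came to -0.60 in the CD27+CD11b- subset, -0.48 in the CD27+CD11b+ subset and -0.15 in the CD27-CD11b+ subset, and the outer difference was -2.21 among off arrays and -1.75 among on arrays. Against CD27+CD11b+ the difference was -2.19 (SE 0.25, 4.55-fold), which missed the threshold over all probe sets (limma adjusted p = 0.113) and passed over 1 probe set per gene (adjusted p = 0.0162). The change between the successive differences, -2.40, was not called (limma adjusted p = 1 over probe sets and 0.565 over genes).

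The calls for Thy1, Cd28 and Trgv4 are narrow ones. Without CD27-CD11b+ replicate 1, whose labels disagree, the outer difference was -4.33 for Trgv1 (limma adjusted p = 0.0181) and -2.17 for Trgv4 on 1450521_a_at (adjusted p = 0.0429), both still called, while Thy1 (-1.91, limma adjusted p = 0.134), Cd28 on 1417597_at (-2.03, adjusted p = 0.161) and Trgv4 on 1422189_x_at (-1.98, adjusted p = 0.0535) lost their calls. Fewer arrays leave the fit with fewer degrees of freedom.

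Ighm, the mu constant region, was split between 8 probe sets under background, with values of 3.72 to 5.43, and 3 above it. The 2 brightest were lower in CD27-CD11b+. Probe set 1427351_s_at, whose suffix marks probes shared between transcripts, read 10.89 and 11.07 in the CD27+CD11b- subset, 10.93 and 10.95 in the CD27+CD11b+ subset, and 10.23 and 10.05 in the CD27-CD11b+ subset. Probe set 1427329_a_at read 9.86 and 9.78, then 10.03 and 9.86, then 9.17 and 8.92. On both, CD27-CD11b+ lay below every array of the CD27+ subsets and the CD27+ subsets lay close together. The differences of CD27-CD11b+ from CD27+CD11b- were -0.84 (SE 0.15, 1.79-fold) and -0.77 (SE 0.15, 1.71-fold), and neither passed over all probe sets (limma adjusted p = 0.0781 and 0.0993). Over 1 probe set per gene, 1427351_s_at passed (adjusted p = 0.0297). The differences from CD27+CD11b+ were -0.80 and -0.90 (limma adjusted p = 0.267 and 0.237). The third, 1427870_x_at, read 7.01 and 6.71, then 6.94 and 6.50, then 7.10 and 6.63, with all subsets overlapping and a difference of 0.00 between the outer subsets (SE 0.24). The probe sets of this gene thus disagreed, and the files do not say which part of the transcript each one covers.

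Probe sets of the other antigen receptor loci were mostly under background. Of 45 further probe sets with a single symbol of such a locus, 42 lay under background in every subset, with values from 3.02 to 6.25, and these included all 32 immunoglobulin ones. The 3 above it belonged to the T cell receptor: 1452205_x_at of Trbv1, 1426113_x_at of Trav9d-3 and 1452405_x_at of Trav9d-3, all with the suffix for probes similar to other transcripts. The Trbv1 probe set read 11.49 and 11.79 in the CD27+CD11b- subset, 11.58 and 11.62 in the CD27+CD11b+ subset, and 10.96 and 11.26 in the CD27-CD11b+ subset, while the other Trbv1 probe set, 1433108_at, stayed between 3.96 and 4.60. CD27-CD11b+ differed from CD27+CD11b- by -0.53 on the bright one (SE 0.17, adjusted p = 0.241 in limma). The 2 Trav9d-3 probe sets lay between 7.13 and 7.70, and CD27-CD11b+ overlapped with both other subsets on each. None of the 45 was called in any pairwise comparison or in the F test. The recombinase genes were under background, Rag1 between 3.36 and 3.68 and Rag2 between 5.09 and 5.83, and the files do not say whether these probe sets lie in a deleted part.

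**Figure D3:**
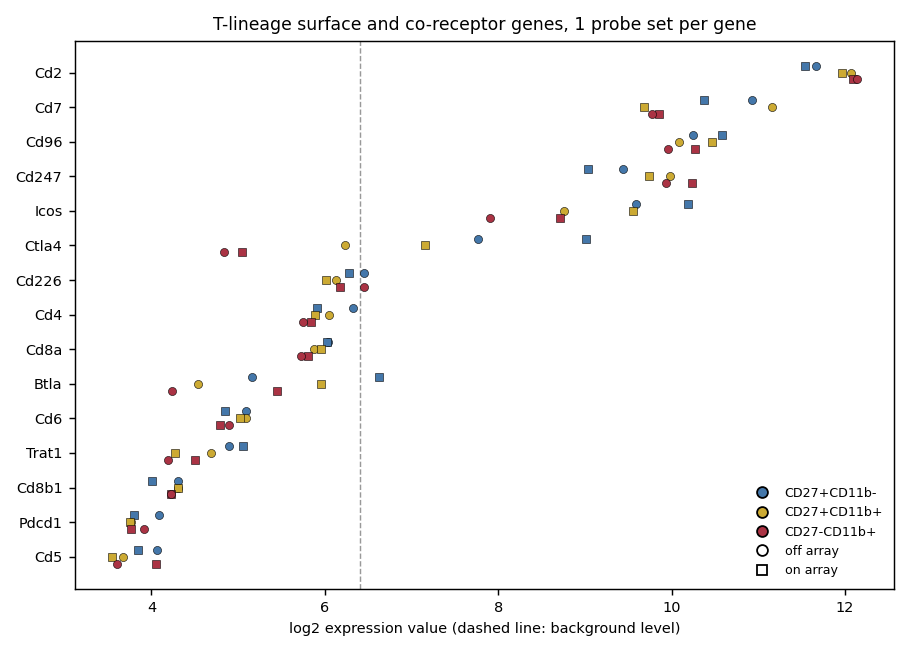
Log2 expression values (horizontal axis) of 15 T-lineage surface and co-receptor genes on the 6 arrays, coloured by subset, with circles for off and squares for on arrays. Cd4, Cd5, Cd6, Cd8a, Cd8b1, Trat1 and Pdcd1 lie left of the dashed background line at 6.41 on all 6 arrays, and Ctla4 spreads from 4.84 to 9.01.

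Other T-lineage surface transcripts were partly under background. Of 15 T-lineage surface and co-receptor genes, 7 stayed under background on all 6 arrays: the co-receptors Cd4, Cd8a and Cd8b1, the scavenger-type receptors Cd5 and Cd6, the T cell receptor associated adaptor Trat1 and the inhibitory receptor Pdcd1. Their levels reached at most 6.32. Cd2, Cd7, Cd96, Cd247 and Icos, which NK cells are also known to express, were above it on all arrays. In the outer comparison Ctla4 fell, 0 rose and 14 did not pass, and the list's median difference was -0.27. Over all probe sets, 0.282% were called lower and 0.357% higher in that comparison. The list's summed level was 13.04 to 13.05 in the CD27+CD11b- subset, 13.03 to 13.22 in the CD27+CD11b+ subset and 12.96 to 13.05 in the CD27-CD11b+ subset.

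Among receptor-proximal signalling genes and T-lineage transcription factors, 1 of each passed in the outer comparison. Of all probe sets, 0.282% were called lower and 0.357% higher there. Of 26 measured signalling genes, such as the Src family kinase Fyn, the kinases Zap70 and Syk and the adaptors Lat and Lcp2, Fcer1g rose in the outer comparison, 0 fell and 25 did not pass, with a median of 0.45. Themis, a signalling protein of developing T cells, was under background on all arrays. Of 19 transcription factors, Ikzf2, the Ikaros family factor Helios, fell to 7.55 ± 0.09 in CD27-CD11b+, against 9.94 ± 0.19 in CD27+CD11b- (5.24-fold, limma adjusted p = 0.00922), and 18 did not pass, with a median of -0.04. Bcl11b, which commits T cell precursors to their lineage, averaged 8.80 ± 0.20 in the CD27+CD11b- subset, 7.48 ± 0.58 in the CD27+CD11b+ subset and 8.09 ± 0.28 in the CD27-CD11b+ subset. Of these lists, 0 members passed in either other comparison.

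Genes of the interleukin-7 receptor and STAT5 route were examined because that route opens the gamma locus in T cells. Il7r, the receptor's alpha chain, read 11.47 and 11.70 in the CD27+CD11b- subset, 9.39 and 9.13 in the CD27+CD11b+ subset, and 7.38 and 7.22 in the CD27-CD11b+ subset, with no overlap between subsets. It fell 19.5-fold in CD27-CD11b+ against CD27+CD11b- (limma adjusted p = 0.00248) and 3.90-fold against CD27+CD11b+ (adjusted p = 0.0394, and 0.0653 with this array division as a block). Myb, the only other called member of the 10 measured, was also called lower in the outer comparison, where 0.282% of all probe sets were. In CD27-CD11b+ against CD27+CD11b+ it fell 7.38-fold (limma adjusted p = 0.0132), where Trgv1 differed by -1.14. The common gamma chain was not among the measured genes, and Jak1, Jak3, Stat5a and Stat5b did not pass. None of the 10 passed in CD27+CD11b+ against CD27+CD11b-. There Il7r differed by -2.32 and Trgv1 by -3.14, both at a limma adjusted p of 0.0594. The adjustment can give unlike p-values the same adjusted value. Whether this route acts on the gamma locus in these cells was not tested.

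Markers of other cells that could carry such transcripts were read beside these results. All cells came from RAG-/- mice, in which neither T nor B cells can make an antigen receptor. The 8 measured gamma delta T cell markers include the sorting marker Cd27. In the outer comparison the scavenger receptor gene Cd163l1 fell (at least 2.92-fold, limma adjusted p = 0.00506) and 7 did not pass. Above background were 3 of the 8 on CD27+CD11b- replicate 1, 4 on CD27+CD11b- replicate 2 and 2 on each other array. Sox13, Blk and Il17a, which were not among the members above background, stayed at or under 5.08 on all arrays. Values of Maf, Ccr6 and 5830411N06Rik are not given here. The list's summed level was 10.63 to 10.67 in the CD27+CD11b- subset, 10.06 to 10.21 in the CD27+CD11b+ subset and 9.70 to 9.72 in the CD27-CD11b+ subset. Of 10 measured markers of other innate lymphoid cells, 5 fell in the outer comparison (Il7r, Tmem176a, Tmem176b, Cd200r1 and Kit) and 0 rose. Of all probe sets, 0.282% were called lower and 0.357% higher. Il7r is also on the list of the interleukin-7 receptor route, so these lists are not separate. The innate lymphoid list's summed level was 12.50 to 12.84 in the CD27+CD11b- subset, 10.99 to 11.20 in the CD27+CD11b+ subset and 10.32 to 10.65 in the CD27-CD11b+ subset. This is the order of Trgv1, and the gamma delta and interleukin-7 receptor route lists had the same order. The part of innate lymphoid or other cells in the Trgv1, Trgv4, Thy1 and Cd28 values was not tested. Of 19 measured B lineage markers, 15 were under background on all arrays, among them Cd79a, Cd79b, Ms4a1 and Pax5. Igll1, Cd22, Bank1 and Cd72 exceeded it on some or all arrays. On all arrays 1 of the 19 was above it, and the list's highest value was 10.21. Cd22, an inhibitory lectin receptor, fell (at least 3.15-fold in the outer comparison, limma adjusted p = 0.00752). That list's summed level was 10.82 to 10.88 in the CD27+CD11b- subset, 10.71 to 10.83 in the CD27+CD11b+ subset and 10.54 to 10.55 in the CD27-CD11b+ subset.

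Genes with similar patterns were sought for 4 of the 8 genes, Trgv1, Trgv4, Thy1 and Cd28. For each gene with a called probe set, the 3 genes with the highest Pearson correlation over the 6 arrays were taken among 584 genes whose subset means spread over at least 1 log2 unit. Trgv1 was most like Ikzf2 (r = 0.996), Rflnb, which encodes a filamin regulator (r = 0.993), and Inpp4b, a phosphoinositide phosphatase (r = 0.992). Trgv4 on 1422189_x_at was most like Cdon (r = 0.993), Bex1 (r = 0.992) and Psd2 (r = 0.990). Of these 3, Cdon alone had a subset mean above background, at 7.48 ± 0.03 in the CD27+CD11b- subset, 6.20 ± 0.03 in the CD27+CD11b+ subset and 6.13 ± 0.01 in the CD27-CD11b+ subset. Thy1 was most like Sidt1 (r = 0.988), Ly6e, which like Thy1 encodes a lipid-anchored surface protein (r = 0.987), and 5830468F06Rik (r = 0.986). All subset means of 5830468F06Rik lay under background. Cd28 was most like Zc3h12d (r = 0.992), Zfp982 (r = 0.990) and the interferon-induced gene Ifit1 (r = 0.990). With 6 points in 3 subsets many genes reach such values. Between the 8 genes themselves, Trgv1 had an r of 0.96 with Trgv4 and 0.61 with Thy1, and Ighm on 1427351_s_at had an r of 0.95 with Cd28 and 0.92 with Thy1.

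**Figure D4:**
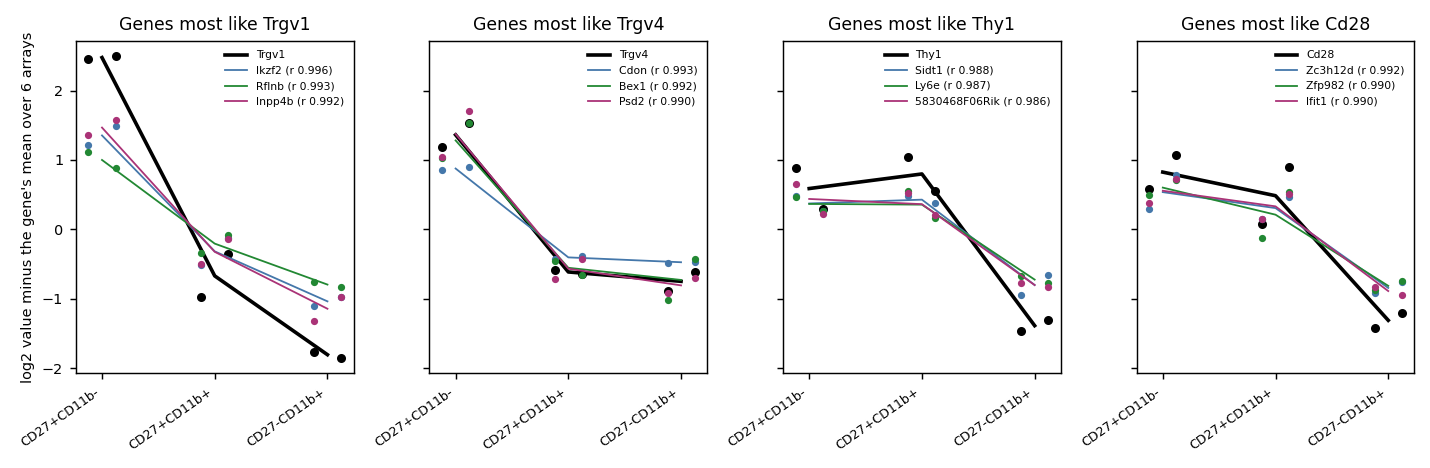
Log2 values minus each gene's mean over the 6 arrays (vertical axis) for Trgv1, Trgv4, Thy1 and Cd28 in black and their 3 most similar genes in colour, with points for arrays and lines through subset means. Subset means of Trgv1 and Trgv4 and their similar genes are lower in CD27+CD11b+ than in CD27+CD11b-, and those of Thy1 and Cd28 and theirs are lowest in CD27-CD11b+.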

How the data were processed

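RNA of 6 samples, 2 per sorted subset, was measured on Affymetrix mouse 430 2.0 arrays, per the labels. The deposited values are on a log2 scale, and the submitters' processing notes name RMA. RMA corrects background, equalises arrays and summarises probes, which removes a shift common to most genes and shrinks the differences of dim ones. Its version is not given in the sources used here. Array medians were 5.26 to 5.35.

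Samples were grouped by title. After 64 control probe sets were left out, limma 3.58.1 in R 4.3.3 fitted 1 mean per subset over 45037 probe sets (3 residual and 3.34 prior degrees of freedom), adjusted by Benjamini-Hochberg. The array annotation gave 34945 probe sets 1 symbol, 932 several and 9160 none. The background level was the 95th percentile of 46 genes of other tissues. Summed levels are log2 of summed linear values, with 1 probe set per gene. The rule for named genes was every probe set of the 8 genes, the called probe sets of other receptor loci, the called genes of each list and the 3 most similar genes. Other genes were picked from the lists after their values were seen, as were the 3 bright receptor locus probe sets. The fit was tested on simulated data. The 8 genes, lists, tests and alternatives were chosen with earlier results of these data known.

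Alternatives were median centring, a background filter, 32 added to linear values, an intensity trend, 1 probe set per gene, blocks and leaving out each array.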

Additional observations from a re-analysis of the deposited data

How the results depend on the processing

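The main counts of called probe sets were 0 for CD27+CD11b+ minus CD27+CD11b-, 18 for CD27-CD11b+ minus CD27+CD11b+, 288 for CD27-CD11b+ minus CD27+CD11b-, 0 for the difference between the 2 successive differences (1146 at an unadjusted p under 0.05 in limma) and 93 for the F test. Over 1 probe set per gene they became 22, 54, 617, 1 and 246, which changes both the probe sets kept and the number of tests. With the background filter alone they were 0, 17, 295, 0 and 93. With 32 added to the linear values the 18, 288 and 93 became 2, 127 and 31, and with an intensity trend the first 0 became 3. With the replicate number as a block the 18 became 11 and the 288 became 390. Deviations of same-numbered arrays correlated at 0.61, -0.08 and 0.06, so the numbers were not taken to pair the samples. With the on and off array sets as a block, chosen after seeing the data, the 18 became 5 and the 93 became 176. With 1 array left out, the 18 ranged from 0 to 415, the 288 from 18 to 971 and the 93 from 0 to 371. The upper ends came without CD27-CD11b+ replicate 2, and every other array left out lowered all 3. The cause of these moves was not tested.

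All 36 differences of the 12 probe sets kept their sign under centring, the filter, the added constant, the trend, 1 probe set per gene and both blocks where these gave a value. The replicate block added a call for Cd3d in the outer comparison (adjusted p = 0.0452) and moved no other of these calls. The added constant ended the outer calls of Cd28 1417597_at (adjusted p = 0.0967), Trgv4 1422189_x_at (0.0511) and Thy1 (0.0823), and centring that of Cd28 (0.0577). The trend called Trgv1 in CD27+CD11b+ minus CD27+CD11b- (0.0432). The outer difference of Trgv1 ran from -4.33 to -4.24 with 1 array left out, and its adjusted p reached 0.0503 without CD27+CD11b- replicate 2. Leaving out any array but CD27-CD11b+ replicate 2 ended the outer calls of Thy1, Cd28 1417597_at and Trgv4 1422189_x_at, and leaving out either CD27+CD11b- array that of Trgv4 1450521_a_at.

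Some differences, none of them called, changed sign with 1 array left out. For CD27+CD11b+ minus CD27+CD11b- they ran from -0.75 to 0.07 for Cd28 1417597_at, from -0.78 to 0.14 for Cd28 1437025_at, from -1.94 to 0.10 for Cd3g, from -0.09 to 0.51 for Thy1, from -0.13 to 0.05 for Ighm 1427351_s_at and from -0.37 to 0.08 for Ighm 1427870_x_at. For CD27-CD11b+ minus CD27+CD11b+ they ran from -0.09 to 0.38 for Ighm 1427870_x_at and from -0.24 to 0.04 for Trgv4 1450521_a_at. Probe sets near background are compressed by RMA, which limits what can be read from Trgv4 and Cd3e.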
